A study of Mus musculus with 48 samples.

Results

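The genes described here are 6 checkpoint genes of T cells and their partners, Pdcd1, Cd274, Pdcd1lg2, Ctla4, Havcr2 and Lag3, out of 18194 genes measured in mouse skin. Each was represented by its only probe set naming that gene alone, 1449835 for Pdcd1, 1419714 for Cd274, 1450290 for Pdcd1lg2, 1419334 for Ctla4, 1451584 for Havcr2 and 1449911 for Lag3, all with the ending _at in the array design. They were picked as a family, not by their values, although earlier results of these data were known. The series tested whether agents against the interleukin-15 (IL-15) pathway prevent alopecia areata, an autoimmune loss of hair, in C3H/HeJ mice.

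All samples were whole skin of the C3H/HeJ strain, measured on 48 Affymetrix arrays of which 47 entered 13 groups. At week 5 the groups were sham (n = 4), phosphate-buffered saline (PBS) ip (n = 4) and il15rb (n = 3). At week 6 they were jak3i (n = 5), PBS pump (n = 3), jak12i (n = 5) and PBS gavage (n = 5). Week 13 had 3 arrays of each agent, il15rb, jak3i and jak12i, and 3 of PBS by each of the routes ip, pump and gavage. From knowledge of the study, il15rb is an antibody to the beta chain of the IL-15 receptor, jak3i is tofacitinib, a Janus kinase (JAK) inhibitor, and jak12i is ruxolitinib, an inhibitor of JAK1 and JAK2. Il15rb was set against PBS ip, jak3i against PBS pump and jak12i against PBS gavage, a pairing of agent and route that the labels do not give. What sham animals received, the age of the mice and whether an array held 1 animal are not given in the sources used here. In the C3H/HeJ model the disease is known to be induced by grafting skin of affected mice.

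Checkpoint receptors are inhibitory receptors that T cells display after activation and that dampen signalling through the T cell receptor. PD-1, encoded by Pdcd1, is engaged by the ligands PD-L1 (Cd274) and PD-L2 (Pdcd1lg2) on other cells. CTLA-4 (Ctla4) competes with the costimulatory receptor CD28 for the same ligands, while TIM-3 (Havcr2) and LAG-3 (Lag3) mark activated and chronically stimulated T cells. PD-L1 is known to be induced by interferon gamma on many cell types, including epithelial cells, and TIM-3 is also made by macrophages and dendritic cells. The hair follicle is known as a site of immune privilege that is lost in alopecia areata.

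The genes of both PD-1 ligands lie next to each other on chromosome 19 in the RefSeq annotation of GRCm38.p6. They fell together at week 13, as did Havcr2 on chromosome 11, so the 250 bases before the transcript start that RefSeq lists for each of these 3 genes are shown, 5′ to 3′ on the gene's strand. Capitals mark matches to AANNGAAA, a core motif of interferon regulatory factors (IRF) on either strand, so a match on the minus strand appears here as its reverse complement. The windows are chr19:29367188-29367437 for Cd274, chr19:29410669-29410918 for Pdcd1lg2 and chr11:46454681-46454930 for Havcr2, all on the plus strand.
Cd274: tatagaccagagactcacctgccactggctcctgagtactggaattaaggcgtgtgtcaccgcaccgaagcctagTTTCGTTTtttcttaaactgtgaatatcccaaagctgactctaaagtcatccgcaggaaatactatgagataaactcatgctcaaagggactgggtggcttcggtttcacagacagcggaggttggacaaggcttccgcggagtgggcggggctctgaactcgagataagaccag
Pdcd1lg2: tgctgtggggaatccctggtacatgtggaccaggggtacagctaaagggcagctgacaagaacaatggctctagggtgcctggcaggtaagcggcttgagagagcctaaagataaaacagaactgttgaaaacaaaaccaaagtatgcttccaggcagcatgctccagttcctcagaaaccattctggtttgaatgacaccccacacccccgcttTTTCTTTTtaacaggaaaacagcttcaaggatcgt
Havcr2: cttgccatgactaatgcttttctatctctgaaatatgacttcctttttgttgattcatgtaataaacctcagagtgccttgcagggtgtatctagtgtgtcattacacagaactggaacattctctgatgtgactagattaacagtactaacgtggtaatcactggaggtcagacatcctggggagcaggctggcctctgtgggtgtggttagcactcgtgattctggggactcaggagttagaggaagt
The Cd274 match lay 175 to 168 bases before the start and the Pdcd1lg2 match 35 to 28 bases before it, both on the minus strand. Pdcd1 also had 1 match, 28 to 21 bases before its start, and the windows of Havcr2 and Ctla4 had none. The longer motifs GAAANNGAAA, the interferon-stimulated response element, and TTCNNNGAA, the gamma-activated site that binds STAT proteins, had no match on either strand in the windows of Pdcd1, Cd274, Pdcd1lg2, Ctla4 or Havcr2. A match to GAAANNGAAA always contains one to AANNGAAA. Over 32851 RefSeq windows of the same length, 21.3% held AANNGAAA, 2.98% held GAAANNGAAA and 7.02% held TTCNNNGAA. These matches describe letters only, and no binding was measured.

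Values are log2 signals from robust multi-array averaging (RMA). A difference is a difference of group means in log2 units with its standard error (SE), and a gene is said to have risen or fallen where limma's p-value, adjusted over all genes in the comparison, was under 0.05. Each probe set has its own scale, so levels are compared between arrays and not between genes. The filter kept 13650 genes above 6.70, the median of the table, in at least 3 arrays. Lag3 was never above it. Pdcd1 and Pdcd1lg2 passed through 3 and 5 arrays, all of them PBS arrays of week 13, so every limma value of the 6 members, with arrays left out too, was taken from the fit of all 18194 genes without the filter. Values of other genes and counts over gene lists come from the fit with it. Arrays of a group correlated between 0.973 and 0.996. Such correlations over all genes do not measure the spread of a single gene, and groups held only 3 to 5 arrays.

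In week 13 skin, checkpoint genes were lower in treated than in PBS skin. Without the filter, 4 of 6 members fell under il15rb, 6 of 6 under jak3i and 3 of 6 under jak12i. Of all genes in the same fits, 9.17%, 5.09% and 8.04% were lower. No member rose, where 11.7%, 7.19% and 8.88% of genes did. Cd274, Pdcd1lg2 and Havcr2 fell under all 3 agents, with differences from -0.85 to -1.98. Pdcd1 fell under il15rb and jak3i, and Ctla4 and Lag3 under jak3i. In the average over the agents all 6 fell, beside 17.5% of genes. With the filter, the shares of genes tested that fell were 10.6%, 6.32% and 10.3%, and those that rose 15.1%, 9.66% and 11.6%. The gene lists are read against these shares. In whole skin, fewer cells that make a transcript and less transcript per cell cannot be told apart.

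**Figure D1:**
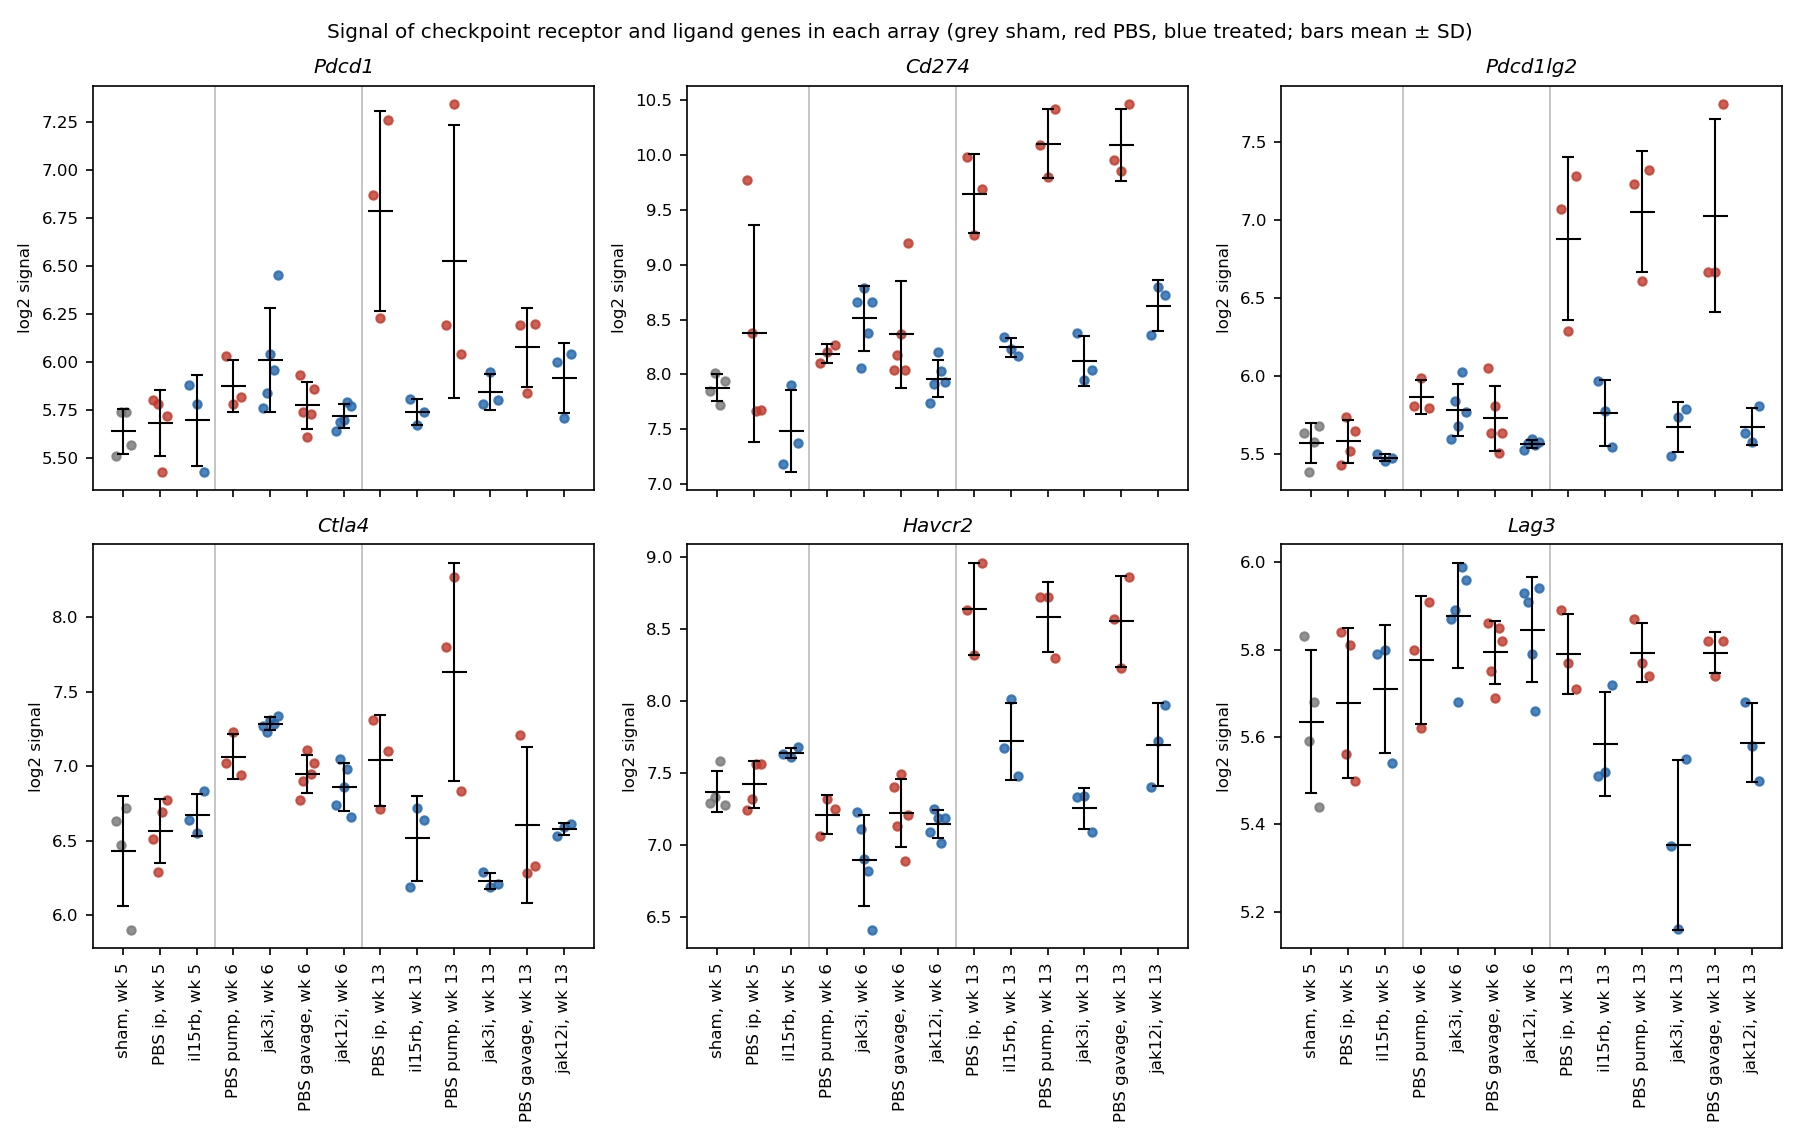
Log2 signal of the 6 genes (vertical axes, 1 panel per gene) in each of 47 arrays, by group along the horizontal axis, with points for arrays and bars for the group mean ± SD. For Cd274, Pdcd1lg2 and Havcr2 all 9 PBS arrays of week 13 (red, right) lie above all 9 treated arrays (blue, right), while Lag3 stays between 5.16 and 5.99 throughout. How many of all genes part all PBS from all treated arrays was not counted.

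Cd274, which encodes PD-L1, had signals of 9.98, 9.27 and 9.69 in PBS ip and 8.34, 8.23 and 8.17 in il15rb at week 13. In PBS pump it stood at 10.09, 9.80 and 10.42 and in jak3i at 8.38, 7.95 and 8.04. In PBS gavage it stood at 9.95, 9.85 and 10.46 and in jak12i at 8.36, 8.80 and 8.72. Every PBS array was above every treated array of its route and of the other routes. The differences were -1.40 ± 0.32 (2.65-fold lower, adjusted p = 0.00151) under il15rb, -1.98 ± 0.32 (3.94-fold, adjusted p = 2.69e-05) under jak3i and -1.46 ± 0.32 (2.74-fold, adjusted p = 0.00129) under jak12i. The lower groups of all 3 pairs did not overlap the higher ones, as was so for 16.1%, 11.9% and 17.7% of genes tested. These shares also stand beside each pair without overlap given below for the other members. For the separation across all routes no share over all genes was counted, so it is not read as particular to the members. Averaged over the 3 agents, Cd274 fell by 1.61 ± 0.18 on the log2 scale (3.06-fold, adjusted p = 6.41e-09).

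Pdcd1lg2, which encodes the second PD-1 ligand PD-L2, stood at 7.07, 6.29 and 7.28 in PBS ip against 5.97, 5.78 and 5.55 in il15rb at week 13. The signals were 7.23, 6.61 and 7.32 in PBS pump against 5.49, 5.74 and 5.79 in jak3i. In PBS gavage they were 6.67, 6.67 and 7.74 against 5.64, 5.58 and 5.81 in jak12i. Treated arrays were all below PBS arrays, and the spread was wider among PBS arrays (SD 0.39 to 0.62) than among treated ones (SD 0.12 to 0.21). Pdcd1lg2 fell by 1.11 ± 0.20 under il15rb (adjusted p = 0.000131), by 1.38 ± 0.20 under jak3i (adjusted p = 5.42e-06) and by 1.35 ± 0.20 under jak12i (adjusted p = 1.08e-05). Treated means of 5.67 to 5.77 lay in the lower part of the table, where log2 differences can be compressed. Of the neighbours of both ligand genes on chromosome 19, Plgrkt, next to Cd274, differed by -0.15 in the average over agents (adjusted p = 0.0339) and Ric1, next to Pdcd1lg2, by -0.09 (adjusted p = 0.285).

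Pdcd1, the gene of the receptor PD-1, was 6.87, 6.23 and 7.26 in PBS ip and 5.81, 5.67 and 5.74 in il15rb at week 13. It was 6.19, 7.34 and 6.04 in PBS pump and 5.78, 5.95 and 5.80 in jak3i. It was 6.19, 5.84 and 6.20 in PBS gavage and 6.00, 5.71 and 6.04 in jak12i. PBS ip and PBS pump arrays stood above the arrays of their agent, while PBS gavage and jak12i overlapped. The differences were -1.04 ± 0.21 under il15rb (2.06-fold lower, adjusted p = 0.000439), -0.68 ± 0.21 under jak3i (adjusted p = 0.0265) and -0.16 ± 0.21 under jak12i (95% confidence interval -0.59 to 0.26, adjusted p = 0.659). The jak3i call rested on PBS pump replicate 2, without which the difference was -0.27 (adjusted p = 0.386). It was also lost without jak3i replicate 1 or 3 (adjusted p = 0.0833 and 0.0821) and in a fit of the same title week only (adjusted p = 0.169).

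The 2 arrays with the highest Pdcd1, PBS pump replicate 2 at 7.34 and PBS ip replicate 3 at 7.26, also had the lowest skeletal muscle lists of week 13. The mean of 7 muscle genes was 8.02 and 7.65 there, while the treated arrays of week 13 lay between 12.77 and 13.94. Skeletal muscle genes were called higher for 6 of 7 under il15rb, 1 of 7 under jak3i and 0 of 7 under jak12i. Of all genes tested, 15.1%, 9.66% and 11.6% were. Their T cell receptor lists, 8.63 and 8.77, were the highest of their groups. Without these arrays and an array of week 6 with low muscle signal, Pdcd1 under jak3i differed by -0.27 (adjusted p = 0.314). The other calls of members within an agent at week 13 were kept there, Lag3 under jak3i at -0.45 (adjusted p = 0.011) among them. With PBS of the other routes as control, the il15rb difference of Pdcd1 was -0.56 (adjusted p = 0.0202) and its jak12i difference -0.74 (adjusted p = 0.00178). With PBS of all routes pooled, the jak12i difference of Pdcd1 was -0.55 (adjusted p = 0.0268). The lack of a jak12i call for Pdcd1 thus depended on the PBS gavage control.

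Ctla4, the gene of CTLA-4, had signals of 7.31, 6.71 and 7.10 in PBS ip and 6.19, 6.72 and 6.64 in il15rb at week 13. It had 7.80, 8.27 and 6.83 in PBS pump and 6.29, 6.19 and 6.21 in jak3i. It had 7.21, 6.28 and 6.33 in PBS gavage and 6.53, 6.59 and 6.61 in jak12i. Only the jak3i and PBS pump arrays were apart, and 2 of 3 PBS gavage arrays were below all jak12i arrays. Ctla4 fell by 1.40 ± 0.23 under jak3i (2.65-fold, adjusted p = 2.85e-05). It differed by -0.52 ± 0.23 under il15rb (adjusted p = 0.0984) and by -0.03 ± 0.23 under jak12i (95% confidence interval -0.48 to 0.43, adjusted p = 0.956). Without PBS ip replicate 2 the il15rb difference was -0.69 (adjusted p = 0.0373). Without PBS gavage replicate 1 the jak12i difference was 0.28 (adjusted p = 0.469). The PBS groups themselves ranged widely, from a mean of 6.60 ± 0.52 (SD) with gavage to 7.63 ± 0.73 with the pump, and the size of the Ctla4 differences moved with them. With PBS of the other routes as control, Ctla4 differed by -0.59 under jak3i (adjusted p = 0.0373) and by -0.76 under jak12i (adjusted p = 0.00298). Its il15rb difference was then -0.60 (adjusted p = 0.0206). With PBS of all routes pooled, the jak3i difference was -0.86 (adjusted p = 0.00593) and the jak12i difference -0.51 (adjusted p = 0.0832).

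Havcr2, the gene of TIM-3, stood at 8.63, 8.32 and 8.96 in PBS ip and 7.67, 8.01 and 7.48 in il15rb at week 13. In PBS pump and jak3i the signals were 8.72, 8.72 and 8.30 against 7.33, 7.34 and 7.09. In PBS gavage and jak12i they were 8.57, 8.23 and 8.86 against 7.40, 7.72 and 7.97. No PBS array reached down to a treated array. Havcr2 fell by 0.91 ± 0.18 under il15rb (1.88-fold, adjusted p = 0.000337), by 1.32 ± 0.18 under jak3i (2.5-fold, adjusted p = 1.4e-06) and by 0.85 ± 0.18 under jak12i (1.81-fold, adjusted p = 0.000814). The 3 PBS means, 8.64, 8.58 and 8.55, lay closer together than the SD within those groups, 0.25 to 0.32.

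Lag3, whose receptor binds MHC class II, lay between 5.16 and 5.99 in all 47 arrays, below the filter in each. At week 13 it was 5.89, 5.77 and 5.71 in PBS ip and 5.51, 5.52 and 5.72 in il15rb. It was 5.87, 5.77 and 5.74 in PBS pump and 5.35, 5.16 and 5.55 in jak3i. It was 5.82, 5.74 and 5.82 in PBS gavage and 5.68, 5.58 and 5.50 in jak12i. Arrays of PBS ip and il15rb overlapped by 0.01, and the other pairs did not overlap. Lag3 fell by 0.44 ± 0.10 under jak3i (1.35-fold, adjusted p = 0.00403) and differed by -0.21 ± 0.10 under il15rb (adjusted p = 0.167) and -0.20 ± 0.10 under jak12i (adjusted p = 0.191). No detection call was used, so a true signal of Lag3 could not be told from background. Its neighbour Cd4 on chromosome 6, the coreceptor gene of helper T cells, did not pass at -0.15 in the average over agents (adjusted p = 0.0582).

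**Figure D2:**
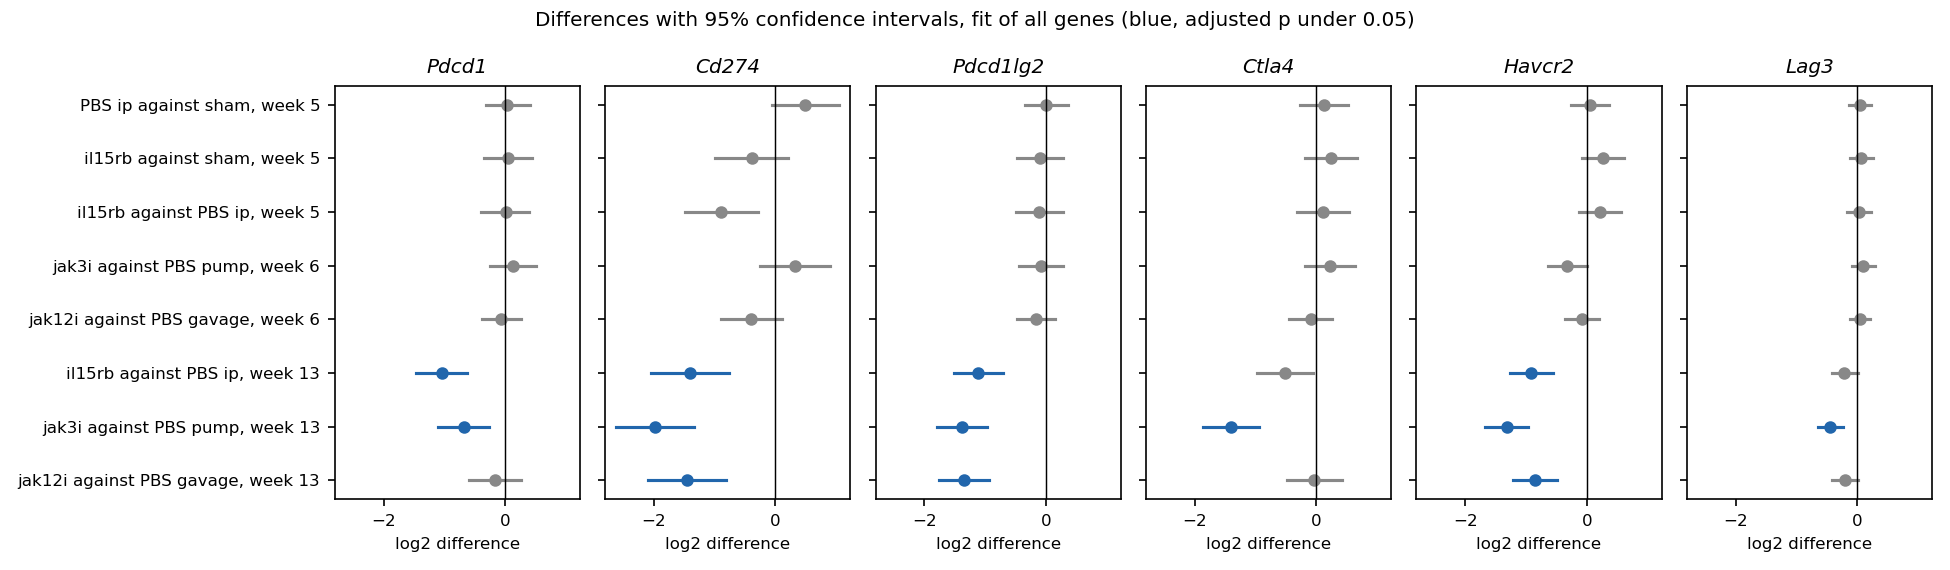
Difference in log2 signal (horizontal axes) for each gene (panels) in 8 comparisons (rows), as points with 95% confidence intervals from the limma fit of all 18194 genes. The 13 blue intervals all belong to week 13 and lie below 0, from -0.44 for Lag3 to -1.98 for Cd274, both under jak3i.

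Earlier in the course the picture was different. Limma called 0 members in each of the 3 comparisons of week 5 and the 2 of week 6, in the fit of all genes. At an unadjusted p under 0.05 there was 1, Cd274 in il15rb against PBS ip, and 0 in the others. Over all genes the share called in either direction was 0.066% for il15rb against PBS ip, 0.011% for PBS ip against sham, 0.0385% for il15rb against sham, 2.81% for jak3i and 6.99% for jak12i. At week 5 Cd274 was 9.77, 8.38, 7.67 and 7.68 in PBS ip, 7.18, 7.90 and 7.38 in il15rb, and 7.85, 8.01, 7.72 and 7.94 in sham. PBS ip replicate 2 stood far above its group, and PBS ip overlapped both other groups. The il15rb difference of -0.89 ± 0.30 from PBS ip (adjusted p = 0.668) became -0.42 without that array, and the difference of PBS ip from sham went from 0.49 ± 0.27 to 0.03. Both comparisons share the PBS ip arrays.

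Havcr2 went the other way under il15rb at week 5, without passing the test. It was 7.63, 7.61 and 7.68 in il15rb, 7.24, 7.32, 7.56 and 7.56 in PBS ip, and 7.29, 7.33, 7.58 and 7.28 in sham. The il15rb arrays were above both other groups without overlap, as were 3.58% of genes tested against PBS ip and 6.24% against sham. The differences were 0.22 ± 0.17 against PBS ip (adjusted p = 0.999) and 0.27 ± 0.17 against sham (adjusted p = 0.585). At week 6 Havcr2 under jak3i was 7.23, 7.11, 6.90, 6.82 and 6.41 beside 7.06, 7.32 and 7.25 in PBS pump. These groups overlapped, at a difference of -0.32 ± 0.16 (95% confidence interval -0.64 to 0.01).

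Ctla4 at week 6 was 7.27, 7.23, 7.31, 7.28 and 7.34 under jak3i and 7.02, 7.23 and 6.94 in PBS pump. The jak3i arrays lay just above PBS pump, where the highest PBS array and the lowest jak3i array shared the rounded value 7.23. The difference of 0.22 ± 0.20 did not pass, and 2.45% of genes tested were higher in jak3i without overlap. Ctla4 under jak12i, at 6.74, 7.05, 6.86, 6.98 and 6.66, overlapped PBS gavage at 6.77, 6.90, 7.11, 6.95 and 7.02. Pdcd1lg2 and Pdcd1 lay between 5.39 and 6.45 in all 29 arrays of weeks 5 and 6, with differences between -0.16 and 0.13 in these 5 comparisons.

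Across weeks the groups are described and not tested, since weeks also differ as batches would. The 75th percentile of an array lay at 8.47 to 8.68 in week 5, 8.15 to 8.35 in week 6 and 8.68 to 8.78 in week 13. All 9 week 13 PBS arrays were above the highest of the 29 earlier arrays for Pdcd1lg2 and for Havcr2, 7 of 9 were for Cd274, 3 of 9 for Pdcd1, 2 of 9 for Ctla4 and 0 of 9 for Lag3. In the order of the 13 group means, the 3 PBS groups of week 13 took the top 3 places for Pdcd1, Cd274, Pdcd1lg2 and Havcr2. The gap to the group below them was 1.02 for Cd274, 1.02 for Pdcd1lg2 and 0.83 for Havcr2, without overlap, and 0.07 for Pdcd1, with overlap. Below that gap, most neighbouring groups overlapped. How many of all genes part the weeks in this way was not counted, so these separations are not read as particular to the members. For Ctla4, PBS pump of week 13 came first, jak3i of week 6 second at 7.29 ± 0.04 and PBS gavage of week 13 only eighth at 6.60 ± 0.52.

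Differences between weeks were tested on the within-week effects, where a shift common to all arrays of a week drops out. The il15rb effect was lower at week 13 than at week 5, with differences of effects of -1.05 ± 0.29 for Pdcd1 (adjusted p = 0.018), -1.01 ± 0.28 for Pdcd1lg2 (adjusted p = 0.0184) and -1.13 ± 0.24 for Havcr2 (adjusted p = 0.00351). Of all genes, 3.51% were lower in this sense. Without PBS ip replicate 1 or 3 of week 13, only Havcr2 of these passed, as Pdcd1 then had adjusted p = 0.0533 and 0.0991 and Pdcd1lg2 0.0677 and 0.0944. Pdcd1 was also lost without il15rb replicate 1 of week 5 (adjusted p = 0.0521), and Pdcd1lg2 without il15rb replicate 3 of week 13 (adjusted p = 0.0665). The jak3i effect was lower at week 13 than at week 6 for 5 of 6 members, beside 2.34% of all genes. The differences were -2.30 for Cd274, -1.30 for Pdcd1lg2, -1.63 for Ctla4, -1.01 for Havcr2 and -0.54 for Lag3 (adjusted p = 0.000771, 0.00239, 0.000806, 0.0073 and 0.0138). Lag3 lost this call without PBS pump replicate 2 of week 6 or jak3i replicate 2 of week 13 (adjusted p = 0.0679 and 0.0526). Pdcd1, at -0.81 (adjusted p = 0.0728), passed without PBS pump replicate 1 or 3 of week 13 (adjusted p = 0.0375 and 0.0236). Without PBS pump replicate 2 of week 13 the Pdcd1 difference shrank to -0.41. With PBS of the other routes, the Ctla4 difference was -0.93 (adjusted p = 0.00705). The jak12i effect was lower for Pdcd1lg2 at -1.19 (adjusted p = 0.00215) and for Havcr2 at -0.77 (adjusted p = 0.02), beside 4.61% of all genes. The Havcr2 call was lost without jak12i replicate 1 or PBS gavage replicate 3 of week 13 (adjusted p = 0.0859 and 0.114). Cd274, at -1.05 (adjusted p = 0.0792), passed without PBS gavage replicate 5 of week 6 (-1.26, adjusted p = 0.0239).

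The 3 agents were compared with each other at week 13 through their differences from PBS, in 3 pairs for each gene, and each pair of agents was adjusted over all genes. No member passed by limma in any pair, where 0.011% of all genes did for il15rb against jak3i, 0.0055% for il15rb against jak12i and 0.022% for jak3i against jak12i. At an unadjusted p under 0.05 there was 1 in each: Ctla4 for il15rb against jak3i and for jak3i against jak12i, and Pdcd1 for il15rb against jak12i. For Ctla4, jak3i minus jak12i was -1.38 ± 0.32 (95% confidence interval -2.03 to -0.73, adjusted p = 0.201). It passed without PBS pump replicate 3 (-1.78, adjusted p = 0.00391) and without PBS gavage replicate 1 (-1.68, adjusted p = 0.0179). Without PBS pump replicate 2 it shrank to -1.06. For Pdcd1, il15rb minus jak12i was -0.88 ± 0.30 (adjusted p = 0.468), and -1.16 without PBS ip replicate 2 (adjusted p = 0.0463). These differences of Ctla4 and Pdcd1 rest partly on PBS groups that differ by route. With PBS of the other routes as controls, jak3i minus jak12i was 0.17 for Ctla4 and il15rb minus jak12i 0.18 for Pdcd1. Swapping controls brings in the gap between the PBS groups with opposite sign, so these values do not show a reversal. With PBS of all routes pooled as the shared control, the differences were -0.35 for Ctla4 and -0.17 for Pdcd1. For the ligands no pair of agents passed either. Cd274 differed by 0.57 for il15rb minus jak3i (95% confidence interval -0.33 to 1.48), by 0.05 for il15rb minus jak12i (-0.86 to 0.96) and by -0.52 for jak3i minus jak12i (-1.43 to 0.39). For Pdcd1lg2 the same pairs gave 0.26 (-0.31 to 0.84), 0.24 (-0.34 to 0.81) and -0.03 (-0.61 to 0.55). These intervals do not show the agents to be equal.

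The receptors are made by T cells, so each gene was also measured against T cell receptor genes of the same array at week 13. The list held Cd3d, Cd3e, Cd3g and Cd247, which encode signalling chains of the receptor, and the adhesion gene Cd2, and its mean differed by -1.04 between the 9 treated and the 9 PBS arrays. It lay between 8.05 and 8.77 in PBS arrays and between 6.87 and 7.87 in treated arrays. An exact two-sided permutation test within routes had 8000 arrangements and a smallest possible p of 0.00025, and its p-values were adjusted over all genes tested. Cd274 minus the list was 1.59 ± 0.49 (SD, n = 9) in PBS arrays and 1.02 ± 0.22 (n = 9) in treated arrays. Relative to the list Cd274 was thus lower, at -0.57 (exact p = 0.006, adjusted p = 0.00649), and 0.835% of genes tested were lower in this sense. Pdcd1 was higher relative to the list, at 0.41 (exact p = 0.016, adjusted p = 0.017), as 94.6% of genes tested were, so that share is near the background. Havcr2 differed from the list by 0.01 (exact p = 0.897), Pdcd1lg2 by -0.24 (exact p = 0.267) and Ctla4 by 0.39 (exact p = 0.0573). Lag3, near the bottom of the scale, differed by 0.76 (exact p = 5e-04). Without PBS ip replicate 3 and PBS pump replicate 2, the arrays of low muscle signal, Cd274 stood at -0.71 (exact p = 0.002) and Ctla4 at 0.41 (exact p = 0.0415).

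**Figure D3:**
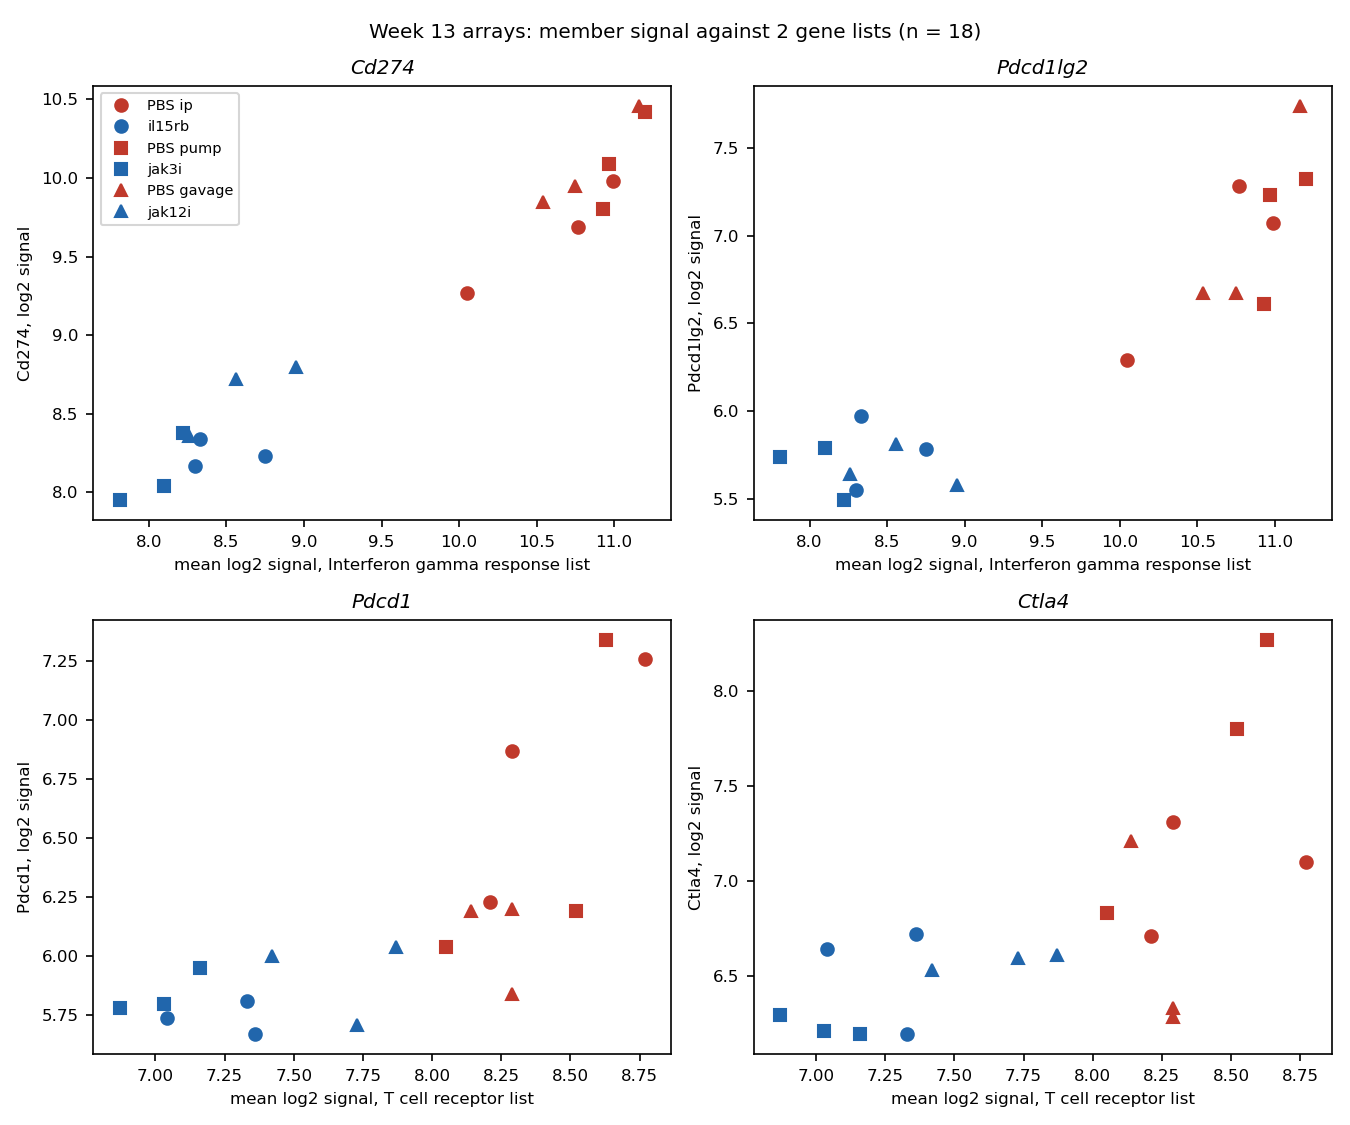
Log2 signal of a checkpoint gene (vertical axes) against the mean log2 signal of a gene list (horizontal axes) in the 18 arrays of week 13, red for PBS and blue for treated, with symbols for the routes. Cd274 rises along the interferon gamma response list in both colours, while the 2 highest Pdcd1 arrays, 7.34 and 7.26, stand apart at the right end of the T cell receptor list.

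Genes whose pattern was most like each member's were taken by Pearson correlation over 47 arrays after subtracting each week's mean. These correlations are descriptions, since the points share groups and array-wide effects. For Cd274 they were Igtp (r = 0.94), Gbp7 (r = 0.936) and Gbp6 (r = 0.927), GTPases induced by interferon. For each of the 3 the r within single weeks lay between 0.79 and 0.977, and with group means removed between 0.847 and 0.869. For Pdcd1lg2 they were Acod1 (r = 0.933), an enzyme gene of activated macrophages, the granzyme gene Gzmb (r = 0.926) and the carbonic anhydrase gene Car9 (r = 0.91). Pdcd1 was nearest to Eya2 (r = 0.774), Zap70 (r = 0.769), a kinase of T cell receptor signalling, and Gprin3 (r = 0.747). Havcr2 was nearest to the lymphocyte factor gene Ikzf3 (r = 0.86), Tcaf2 (r = 0.854) and Il18rap (r = 0.845), a chain of the interleukin-18 receptor. Ctla4 was nearest to Ang2 (r = 0.701), Gpr65 (r = 0.675) and its fellow member Pdcd1 (r = 0.64). For Pdcd1lg2, Pdcd1, Havcr2 and Ctla4 the r within single weeks was higher in week 13 than in the other weeks for each gene named. The genes were chosen over all 47 arrays, and these members spanned a wider range in week 13, which favours a higher r there. The order of the weeks is therefore not read as a result. Acod1 with Pdcd1lg2 had r = 0.966 in week 13, 0.187 in week 6 and -0.175 in week 5, and Zap70 with Pdcd1 had 0.896, 0.65 and -0.231. Gpr65 with Ctla4 had 0.798, 0.12 and -0.722, and Ikzf3 with Havcr2 had 0.948, 0.559 and -0.22.

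Among the members the pairs differed in what they shared. Pdcd1lg2 and Havcr2 had r = 0.772 over the 47 arrays with week means removed and r = 0.372 with group means removed. Cd274 and Pdcd1lg2 had r = 0.729 and r = 0.13. Pdcd1lg2 lay between 5.39 and 6.05 in weeks 5 and 6 and between 5.49 and 5.97 in treated arrays of week 13. So little spread limits the second r. In week 13 PBS skin both were lowest in replicate 2 of ip (9.27 and 6.29) and of pump (9.80 and 6.61). In gavage both were highest in replicate 3 (10.46 and 7.74), while in ip the highest arrays differed. Whether the ligand genes vary together within these groups was not tested. Pdcd1 and Ctla4 had r = 0.64 and r = 0.415.

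Of 10 other inhibitory receptors tested, 3 fell under il15rb, 3 under jak3i and 0 under jak12i, with median differences of -0.24, -0.12 and -0.06 beside 0.01, 0.03 and 0.02 over all genes tested. Cd244a, the receptor 2B4, fell under jak3i by 1.69 ± 0.27 (adjusted p = 2.37e-05) and under il15rb by 0.93 ± 0.27 (adjusted p = 0.0109). Btla, which binds HVEM, fell under jak3i by 1.38 ± 0.26 (adjusted p = 0.000259). Cd96, a receptor for the poliovirus receptor family, fell under il15rb by 0.96 ± 0.17 (adjusted p = 7.67e-05) and under jak3i by 0.66 ± 0.17 (adjusted p = 0.00595). Under jak12i these genes differed by -0.69, -0.67 and -0.15 (adjusted p = 0.0641, 0.0621 and 0.577).

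Of 11 other checkpoint ligands tested, 2, 3 and 3 fell under il15rb, jak3i and jak12i, with medians of -0.22, -0.21 and -0.38. Lgals9, which encodes galectin-9, a ligand of TIM-3, fell under jak3i by 1.06 ± 0.18 (adjusted p = 7.37e-05) and under jak12i by 0.80 ± 0.18 (adjusted p = 0.00191), and differed by -0.08 under il15rb (adjusted p = 0.777). Cd276, which encodes B7-H3, fell under il15rb by 0.60 ± 0.17 (adjusted p = 0.00944) and under jak12i by 0.61 ± 0.17 (adjusted p = 0.00932). Tnfrsf14, which encodes HVEM, the ligand of BTLA, fell under jak3i by 0.96 ± 0.17 (adjusted p = 6.71e-05). Genes of MHC class II presentation fell for 5, 6 and 4 of 7, with H2-Ab1 at -0.61, -0.94 and -0.58 (adjusted p = 0.00114, 3.69e-06 and 0.00208). MHC class II is the ligand of LAG-3, but the list also holds genes that do not encode the ligand itself, such as Ciita and H2-DMa.

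Costimulatory receptors counter the checkpoints. Of 10 measured, 5 were tested, of which 2, 3 and 2 fell under il15rb, jak3i and jak12i, with medians of -0.38, -0.53 and -0.22 beside 0.01, 0.03 and 0.02 over all genes tested. Icos, the neighbour of Ctla4 on chromosome 1, fell by 1.10, 1.16 and 0.77 (adjusted p = 7.02e-07, 1.74e-07 and 0.000128). Cd28, on the other side of Ctla4, was not tested. Genes of signalling below these receptors fell for 3, 2 and 2 of 9, and 1 rose under il15rb. Lat, an adaptor of T cell receptor signalling, fell by 1.11, 1.36 and 0.72 (adjusted p = 1.86e-05, 5.59e-07 and 0.0032). Transcription factors known from activated and exhausted T cells went both ways: 2, 3 and 2 of 10 fell and 1, 1 and 3 rose. Batf fell by 0.39, 0.35 and 0.41 (adjusted p = 0.0051, 0.0199 and 0.00413), while Nfatc1, which is also active in hair follicle stem cells, rose by 0.69, 0.65 and 0.82 (adjusted p = 0.000407, 0.00117 and 5.43e-05). Of the adenosine pathway genes Nt5e and Entpd1, 0, 0 and 1 rose.

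Marker lists of the cells that could carry these genes moved as follows at week 13. All 5 T cell receptor genes tested fell under il15rb and jak3i and 3 of 5 under jak12i. All 8 cytotoxic genes and all 16 interferon gamma response genes tested fell under each agent, among them the chemokine gene Cxcl10 at -3.38, -4.80 and -3.73. A gene low elsewhere could pass the filter through week 13 PBS arrays alone, which favours falls in these lists. Genes that failed the filter are not counted. The interferon gamma response list lay between 10.05 and 11.20 in PBS arrays and between 7.81 and 8.95 in treated arrays, apart as Cd274 was. Of 12 macrophage genes, 1, 1 and 2 fell, and of 5 dendritic cell genes 1 fell under each agent, the integrin gene Itgax, by 1.31, 0.83 and 1.43 (adjusted p = 1.05e-05, 0.00397 and 3.81e-06). Regulatory T cell genes fell for 2, 3 and 1 of 4 tested, all of them (Icos, Tnfrsf18 and Tnfrsf4) also in the costimulatory list, while Ikzf2 rose under jak12i. The defining gene Foxp3 was at a mean of 5.14, near the bottom of the scale. No B cell gene passed the filter. Hair shaft genes fell for 0, 0 and 6 of 6, and mast cell genes rose for 0, 1 and 0 of 6. The epidermal list, which checks the labelled tissue, had group means between 13.30 and 13.57. How far these cell types take part in the changes of the checkpoint genes was not tested.

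**Figure D4:**
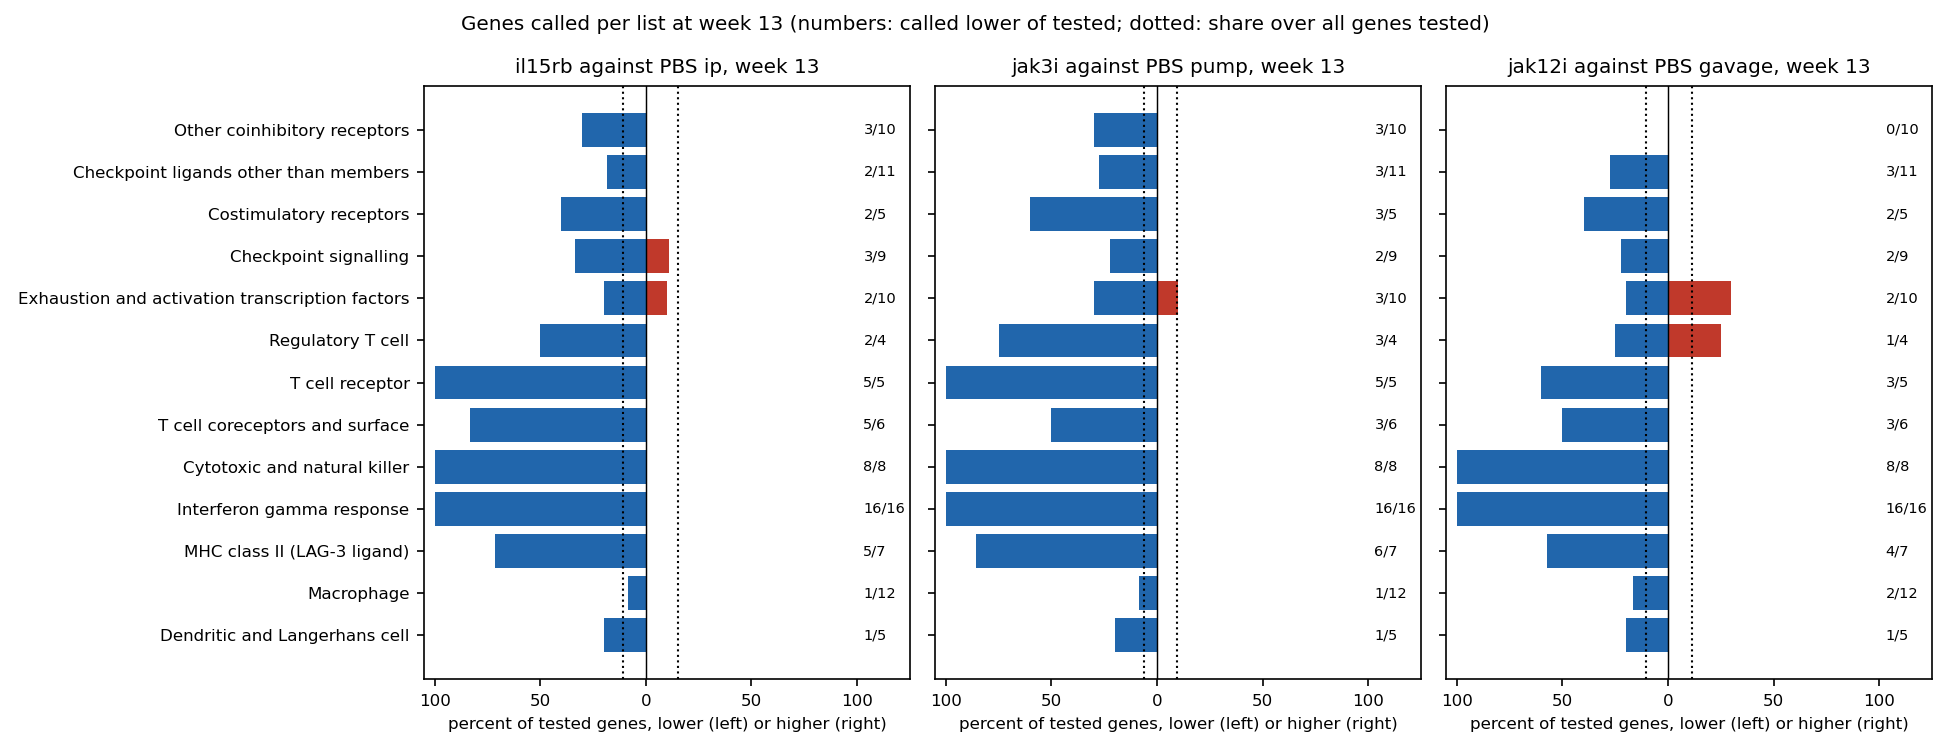
Share of tested genes called lower (blue, to the left) or higher (red, to the right) in each gene list (rows) at week 13, 1 panel per agent, with the share over all genes tested as dotted lines and the count lower of tested at the right. The interferon gamma response bar reaches 16 of 16 under each agent, while the other inhibitory receptors stop at 3, 3 and 0 of 10.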

How the data were processed

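Per the submitters' processing notes the arrays were processed with RMA, which gives background-corrected, normalized log2 signals, and the deposited log2 values of 45101 probe sets were used unchanged. Software version and genome build are not given in the sources used here. Groups came from titles and treatment labels. One array titled PBS ip and labelled IL15 entered no group. Probe sets naming 1 gene symbol (34958) gave 18194 genes, each by its probe set of highest mean. Those above 6.70 in at least 3 arrays (13650) were tested, and a fit of all 18194 gave the values of the members, as 2 of them passed the filter only through week 13 PBS arrays.

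A mean per group was fitted over 47 arrays with limma 3.58.1 (R 4.3.3), with empirical Bayes moderation and Benjamini-Hochberg adjustment within each comparison at 0.05, after a check on simulated data. Nothing beyond the term biological replicate says that arrays came from separate animals, so p-values reflect only the spread of these arrays. The stratified exact test was adjusted over all genes in place of the 6 members alone, as first planned. Promoter sequences came from RefSeq (GRCm38.p6). Members and lists were chosen with earlier results of these data known. Named list genes are up to 3 of smallest p per list in the average over agents. Some list genes, among them Lck and Tigit, were not analysed here. Replicate numbers do not pair arrays: arrays of equal number correlated between -0.492 and 0.236 after removing group means, with 4 of 25 pairs over 0.1. Alternatives covered the filter, scaling, moderation, probe set choice, control route, the array of conflicting labels, a replicate block and left-out arrays. Leaving out the 2 arrays of low muscle signal in the permutation test, and repeating the alternatives on arrays, routes and block without the filter, were chosen after seeing the data.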

Additional observations from a re-analysis of the deposited data

Results flagged for a closer look

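A pair of arrays stood apart from their groups. Cd274 in PBS gavage replicate 5 of week 6 was 9.20, where the other 4 arrays lay between 8.04 and 8.37. Havcr2 in sham replicate 3 of week 5 was 7.58, where the others lay between 7.28 and 7.33. Of 30 sets of 4 or 5 arrays tested this way, each a single gene in a single group, chance flags about 1 in 20, or 1.5.

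The effects of treatment differed between weeks for several genes by limma's test of the difference. Under il15rb, week 13 minus week 5 was -1.05 for Pdcd1, -1.01 for Pdcd1lg2 and -1.13 for Havcr2. Under jak3i, week 13 minus week 6 was -2.30 for Cd274, -1.30 for Pdcd1lg2, -1.63 for Ctla4, -1.01 for Havcr2 and -0.54 for Lag3. Under jak12i it was -1.19 for Pdcd1lg2 and -0.77 for Havcr2. Week and array batch cannot be told apart beyond what cancels within a week.

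The week 5 array whose title names PBS ip and whose treatment label names IL15 was used in no comparison. Its signals of Pdcd1lg2 (5.77) and Havcr2 (7.61) were above the highest sham arrays (5.68 and 7.58), and Lag3 (5.83) was level with it to 2 decimals. Its Pdcd1lg2 was also above all PBS ip and il15rb arrays of week 5, the highest of which were 5.74 and 5.50. Pdcd1 was 5.69, Cd274 7.51 and Ctla4 6.43 there. No group was inferred from these values.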

How the results depend on the processing

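No result reversed its direction while called, under any alternative tried. The counts here are those of the fit with the filter, over its 5 members tested, while adjusted p-values come from the fit without it. Pdcd1 and Pdcd1lg2 passed the filter only through week 13 PBS arrays, which favours falls at week 13. Counts that moved beyond 1.5 times were these. With PBS of the other routes as control, jak3i at week 6 had 1 (Havcr2) in place of 0 and jak12i at week 13 had 5 in place of 3, with Pdcd1 at -0.74 and Ctla4 at -0.76. With PBS of all routes pooled, jak3i at week 6 had 1. Without the filter, Havcr2 kept this call with PBS of all routes pooled (adjusted p = 0.047) but not with PBS of the other routes. Without 3 arrays of high hair shaft signal, the change of the jak12i effect between weeks 6 and 13 had 1 in place of 2. Leaving out 1 array at a time gave 4 to 5 for il15rb, 4 to 5 for jak3i and 3 to 3 for jak12i at week 13, and 5 to 5 for their average. It gave 0 to 1 for il15rb minus jak12i and for jak3i minus jak12i. For the change between weeks it gave 1 to 3 under il15rb, 4 to 5 under jak3i and 1 to 3 under jak12i. For the permutation test the count is of all 6 members, Lag3 included, at an unadjusted exact p under 0.05. That count was 3 (Cd274, Pdcd1 and Lag3), and 3 to 5 with 1 array left out. Counts of week 5 and 6 comparisons and of il15rb minus jak3i stayed at 0 with 1 array left out. With a replicate block the counts at week 13 were 4 for il15rb, 4 for jak3i, 3 for jak12i and 5 for their average. Under the block Pdcd1 lost its calls under jak3i at week 13 (-0.68, adjusted p = 0.0586) and in the change under il15rb (adjusted p = 0.0994). Cd274 gained one there in the change under jak12i (adjusted p = 0.0329). Pdcd1lg2 lost its call in the change under il15rb without 3 arrays of low muscle signal (adjusted p = 0.0686). Quantile normalization and subtracting array medians kept the median of all genes within 0.031 of 0. Signals of Lag3, and of Pdcd1 and Pdcd1lg2 outside week 13 PBS skin, lay near the bottom of the scale, which limits their differences.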
